A study of Rattus norvegicus with 180 samples.

Results

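Levels of the miRNAs of the imprinted Dlk1-Dio3 cluster were described over 55 organs of the male rat. The members were the non-starred miRNA names of the array that carry 1 of 37 numbers known from this cluster, with any arm, letter or probe version. They came to 51 of the 717 miRNA names on the array. The rule uses names and no threshold on a level. The atlas consisted of 180 one-color miRNA arrays, each hybridized with total RNA of 1 organ of 1 rat. All 6 rats were male Sprague-Dawley animals of 10 weeks. Rats 4, 5 and 6 were perfused with saline before the organs were taken, and each of their 55 organs was measured on 3 arrays, 1 per rat. Rats 1, 2 and 3 were not perfused, and liver, kidney, lung, heart atrium and heart interventricular septum were measured in them (15 arrays). The design held no genetic or drug treatment group. The organs were grouped here into 5 brain regions (cerebral cortex, hippocampus, thalamus, cerebellum and medulla oblongata), 3 levels of the spinal cord, pituitary gland, adrenal gland, nerves and eye, and 42 body organs.

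The cluster is a stretch of an imprinted chromosome region in placental mammals. The protein-coding genes Dlk1, Rtl1 and Dio3 are expressed from the paternal chromosome, whereas the long noncoding RNAs Meg3, Rian and Mirg and the miRNAs processed from the same strand come from the maternal one. Several of the miRNAs lie antisense to Rtl1, a retrotransposon-derived gene needed in the placenta, and the large group from miR-379 to miR-410 is known for neuronal activity-dependent expression and for effects on dendrites and synapses. Levels of the protein-coding and long noncoding RNAs were not measured by these arrays.

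In the RefSeq table of the rat assembly GRCr8, all 51 members could be placed on the plus strand of chromosome 6, at 39 loci within chr6:134298084-134579838, a span of 281755 bases. Of these loci, 9 formed the side of Meg3 and Rtl1 (chr6:134298084-134347910, 49827 bases, 9 members), and 30 formed the side of miR-379 and miR-410 (chr6:134543445-134579838, 36394 bases, 42 members). The sequences given here are those of the members on which the results turn. They are mature RefSeq sequences from 5′ to 3′, and the capitals mark the seed (bases 2 to 8), which pairs with target mRNAs. Most array names carry no arm, so the arm shown was assigned from the usual naming of mature miRNAs and was not read from the array. The first set holds the members that were highest in pituitary relative to brain.
miR-431: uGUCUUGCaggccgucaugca
miR-376c: aACAUAGAggaaauuucacgu
miR-337: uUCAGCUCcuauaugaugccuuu
miR-299: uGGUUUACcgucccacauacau
miR-494: uGAAACAUacacgggaaaccucu

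The second set holds members that were higher in brain than in pituitary or adrenal gland.
miR-323: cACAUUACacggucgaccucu
miR-758: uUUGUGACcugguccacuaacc
miR-485: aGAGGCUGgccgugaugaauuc
miR-300-5p: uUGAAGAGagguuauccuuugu
miR-495: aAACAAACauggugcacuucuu

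The third set holds members that were higher in brain, pituitary gland and adrenal gland than in body organs, among them the other 3p forms of the miR-376 family, and a direct neighbor of miR-431.
miR-127: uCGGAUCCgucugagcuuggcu
miR-434: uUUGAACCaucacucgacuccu
miR-379: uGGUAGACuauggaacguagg
miR-410: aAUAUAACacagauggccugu
miR-376b-3p: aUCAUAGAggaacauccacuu
miR-376a: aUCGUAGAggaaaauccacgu
miR-433: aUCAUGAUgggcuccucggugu

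A RefSeq sequence was matched for 31 members, and these had 31 distinct seeds. No seed was shared, and miR-376a, miR-376b-3p and miR-376c, which lie next to each other in the miR-379/miR-410 side, each carried their own.

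Levels are scaled intensities: the background-subtracted fluorescence of the spots of a miRNA, scaled per array and raised to a floor of 10.8, below which values have no order. Probes differ in brightness, so levels were compared only within a member. Values of 3 arrays are given in the order of rats 4, 5 and 6. A member counted as detected on an array if the scanner software had marked more than 50% of the spots used as well above background. The spots of all probe sequences of a name were pooled for this call. The arrays detected 86 to 244 of the 717 miRNAs, with a median of 161.5. Each organ was sampled once in each rat, so p-values measure only the spread between these animals' samples. In RNA of whole organs, fewer cells of a type and less RNA per cell cannot be told apart. Some arrays stood apart: the 3 of pancreas were dim, rat 6 had 21 members in mandibular gland against 13 and 15, and rat 4 had low neuronal markers in the pars lumbalis of the spinal cord. Counts and correlations that rest on them are given with and without them.

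Detection on 1 or more of the 180 arrays was reached by 42 of the 51 members, and 39 were detected on all 3 arrays of at least 1 organ and could be tested. The 9 members that were never detected were miR-377, miR-380, miR-381_v15.0, miR-412, miR-543, miR-543_v15.0, miR-667_v15.0, miR-668 and miR-770. The 3 members detected on too few arrays for a test were miR-376b-5p (7 arrays), miR-496 (9 arrays) and miR-539 (4 arrays). The 4 probe sequences of miR-376b-5p were detected on 0, 3, 26 and 54 arrays of perfused rats, and those of miR-539 on 33, 0, 0 and 62. The pooled call of these names was thus kept down by dim sequences. The last sequence had 178, 196 and 162 in pituitary gland for miR-376b-5p and 200, 244 and 178 for miR-539. At the other end, miR-409-3p and miR-494_v15.0 were detected on all 180 arrays. The number never detected depended on the call, with 3 by the gene-level call of the scanner software and 14 with a stricter call of over 80% of spots. Most members were at the floor in most organs: a tested member lay at the floor on a median of 67.9% of the arrays of perfused rats, against 57.6% over all 345 tested miRNAs.

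The number of members per organ was graded, with many in the nervous system, pituitary gland and adrenal gland and few in most body organs. Thalamus had the most members detected on all 3 arrays (35), followed by cerebral cortex and hippocampus (34 each), pituitary gland (32), adrenal gland and medulla oblongata (31 each) and cerebellum (30). The 3 levels of the spinal cord had 31 (cervical), 24 (pectoral) and 29 (pars lumbalis). Outside the nervous system and these endocrine organs, sublingual gland stood first with 27, as many as the ischial nerve, and tongue followed with 18. Detection over all miRNAs varied less, with 187 on all 3 arrays in thalamus, 188 in pituitary gland, 186 in adrenal gland, 148 in tongue, 103 in liver and 82 in pancreas. The members made up 18.7% of these in thalamus, 17.5% in sublingual gland and 1.94% in liver. The median over the 42 body organs was 3 members, with a range of 2 to 27. In 28 body organs at most 3 members were detected on all arrays, and in 9 at least 10. Rats differed in some organs, for example 38, 31 and 27 members in sublingual gland and 38, 39 and 32 in pituitary gland, where rat 6 also had fewer miRNAs detected in all (190 against 229 and 244).

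**Figure D1:**
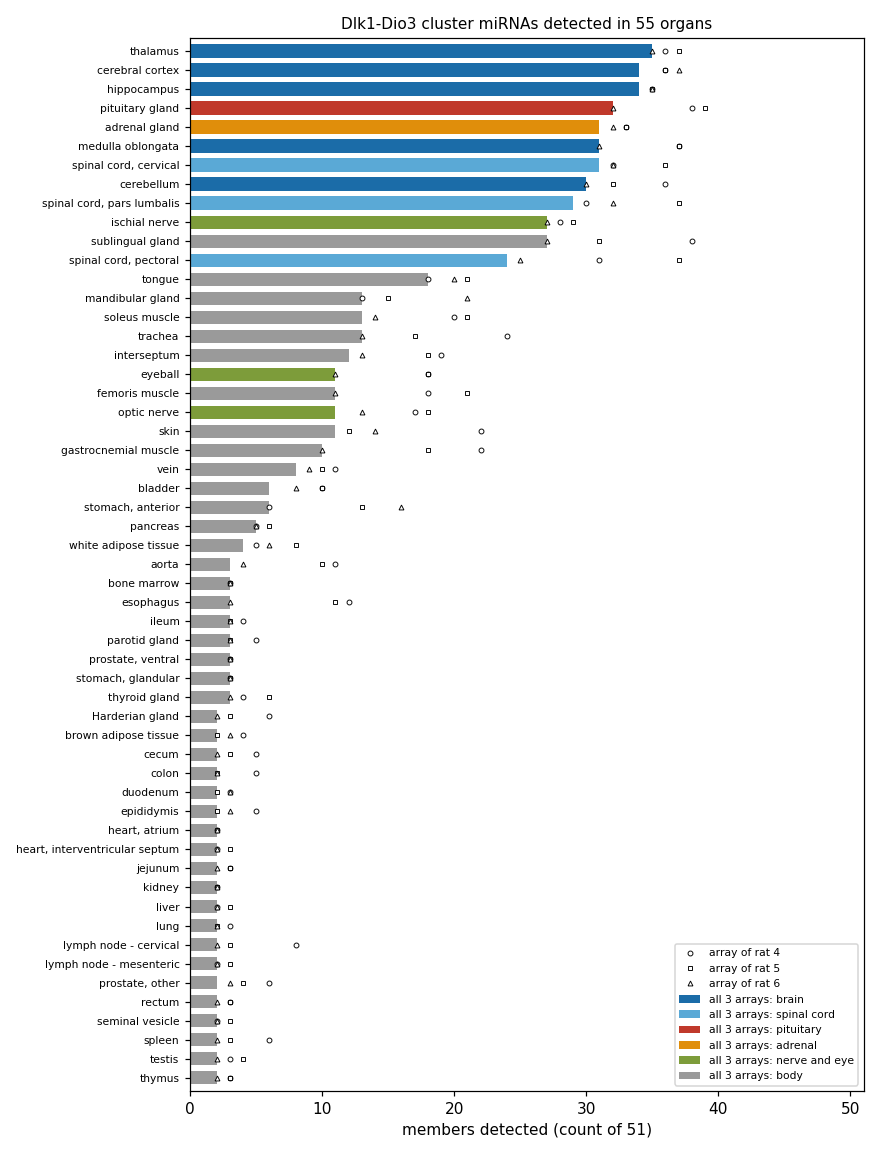
Number of members (of 51) detected in each of 55 organs. Bars give the members detected on all 3 arrays, colored by organ group, and symbols the count on the array of each rat; brain regions, pituitary gland and adrenal gland reach 30 to 35, and most body organs stay at 2 or 3.

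Each tested member had its highest level, among organs that detected it on all 3 arrays, in 1 of 4 organs: thalamus for 17 members, pituitary gland for 16, pancreas for 5 and sublingual gland for 1. None peaked in adrenal gland. All 39 members differed among the 55 organs by the limma F test, as did 99.7% of all tested miRNAs, so this says little about the cluster. The members mostly shared 1 profile: over 55 organ means, 26 of the 39 correlated with the median of the other members at r over 0.8. These correlations are across organs that share arrays and scaling and are given as a description. The lowest were miR-494_v15.0 (r = -0.20), miR-494 (r = -0.15), miR-409-3p (r = -0.07), miR-493 (r = -0.03) and miR-134 (r = -0.03), the same 5 members that peaked in pancreas. Without pancreas, an alternative added after seeing the data, they were still the lowest (r = -0.24, -0.18, -0.06, -0.07 and 0.00071 in the same order), and 27 of the 39 were over 0.8. The correlation of miR-300-5p moved from 0.45 to 0.65 and that of miR-667 from 0.54 to 0.76.

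**Figure D2:**
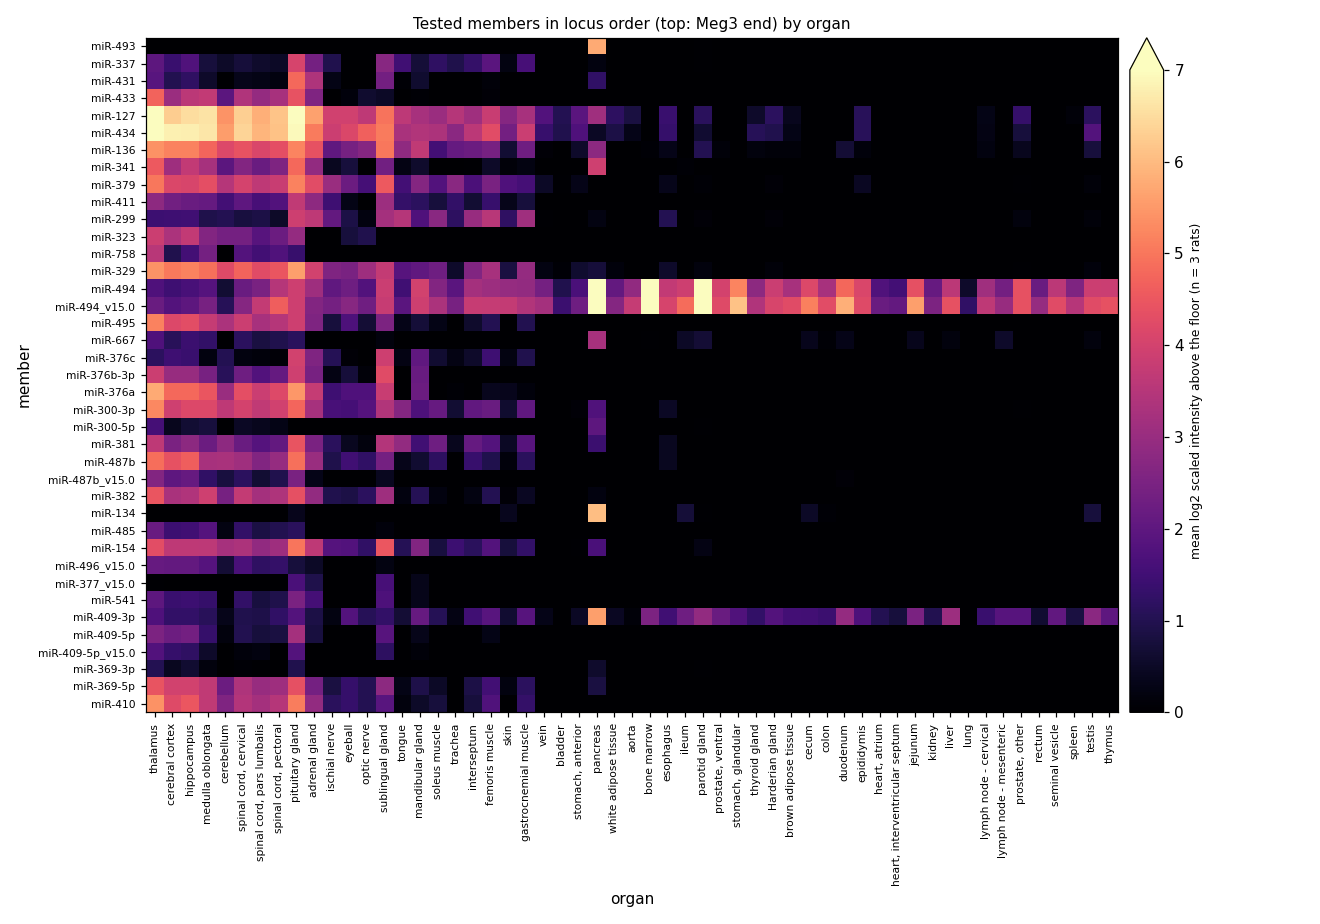
Mean level of the 39 tested members (rows, from the Meg3 end at the top to miR-410) in 55 organs (columns, by organ group), as log2 scaled intensity above the floor; black is at the floor. Most rows are bright in brain, spinal cord, pituitary gland, adrenal gland and sublingual gland, while miR-494 and miR-409-3p are bright elsewhere and miR-493 and miR-134 almost only in pancreas.

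Brain was compared with the 42 body organs first. Of the 39 tested members, 33 were higher in brain and 5 lower, where 40% of all tested miRNAs were higher and 55.4% lower. The median difference was 1.77 on the log2 scale for the members and -0.15 over all tested miRNAs. miR-434, which lies antisense to Rtl1, ranged from 482 to 1809.9 around a median of 1142 over the 15 brain arrays. Over the 126 arrays of body organs it ranged from 10.8 to 376.6 around a median of 14.1. The lowest brain array thus lay above the highest body array, which was from sublingual gland, and the difference was 5.51 ± 0.09 (SE, 45.5-fold, adjusted p = 3.04e-88). miR-127, its neighbor, whose perfect pairing with Rtl1 mRNA is a textbook case of miRNA-directed cleavage in mammals, ranged from 441 to 2094 around a median of 979 in brain. In body organs it ranged from 10.8 to 402 around a median of 16.7, and the difference was 5.23 ± 0.09 (37.4-fold). These folds depend on the floor, since miR-434 was detected on 56 and miR-127 on 53 of the 126 body arrays, and many of the others were set to it. In 9 members all 15 brain arrays lay above all 126 body arrays, as they did in 33 of all 345 tested miRNAs (9.57%), and both counts were the same without pancreas. miR-323 was at the floor on all 126 body arrays and ranged from 51.01 to 183 around a median of 109 in brain. miR-758 was also at the floor on all 126 body arrays, and was detected on 14 of the 15 brain arrays and on no body array. The 5 members lower in brain were miR-494_v15.0, miR-494, miR-409-3p, miR-134 and miR-493, and without pancreas among the body organs 3 were lower. miR-134 and miR-493 entered the test through pancreas alone and were at the floor on all 15 brain arrays, so their direction was fixed by the filter. miR-369-3p, among the 33 higher, entered through thalamus alone, which likewise fixed its direction, and with 1 mean per rat and organ class its adjusted p was 0.0544.

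The counts of this comparison depended on how background was removed. With a normal-exponential background model, which raised the floor to 81.6, 16 members were higher and 16 lower, the members' median was -0.14 against -0.50 over all, and all tested miRNAs stood at 75 higher against 240 lower in place of 138 against 191. With the 75th percentile taken over all miRNAs, the members gave 27 higher and 6 lower and all tested miRNAs 100 higher and 222 lower.

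Pituitary gland was compared with body organs in the same way. Of the 39 members, 33 were higher in pituitary gland and 1, miR-493, was lower, where 37.4% of all tested miRNAs were higher and 44.6% lower. miR-493 could be tested only because pancreas, a body organ, detected it, which fixes this direction, and without pancreas 0 members were lower. miR-323 and miR-758, at the floor on all 126 body arrays, could not be called lower here either. The median difference was 3.75 for the members and -0.12 over all. In 26 members the 3 pituitary arrays lay above all 126 body arrays, as in 58 of all 345 tested miRNAs (16.8%), and without pancreas in 27 members and 64 of all tested miRNAs. miR-127 reached 2048, 1854 and 2086 in pituitary gland, 80.9-fold its mean in body organs, again with the floor setting much of the body mean (6.34 ± 0.19 log2, adjusted p = 3.90e-59). The split over all tested miRNAs moved with the scaling, from 45.6% of calls being higher to 29.2% (79 higher and 192 lower) with the 75th percentile over all miRNAs and to 57.6% (160 and 118) with the median over miRNAs detected on all arrays. Quantile normalization and the authors' table gave 91 and 178 and 93 and 178. Under the first 2 scalings the members gave 29 higher with 3 lower, and 36 higher with 1 lower. With the normal-exponential background 22 members were higher and 0 lower, and the members' median was 0.89 against -0.49 over all. It was 2.45 with the 75th percentile over all miRNAs, 2.71 after quantile normalization, 2.81 in the authors' table and 4.32 with the median over miRNAs detected on all arrays.

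The tissue label was checked against markers. The pituitary endocrine markers miR-7a and miR-375 summed to 25525, 28892 and 28079 in pituitary gland and to 3318, 2597 and 2406 in thalamus. The neuronal markers miR-124 and miR-9 summed to 6907, 6103 and 6721 in thalamus and to 21.7, 26.9 and 21.7 in pituitary gland, where neither was detected on all 3 arrays. The high level of the members in pituitary gland therefore occurred where both neuronal markers were at or near the floor. The 4 epithelial markers, miR-200a, miR-200b, miR-200c and miR-141, were all detected in pituitary gland, with sums of 3421, 4156 and 4185, and their part in the result was not tested. In adrenal gland the neuronal sum was at the floor on all 3 arrays (21.7, 21.7 and 21.7). No list of adrenal markers was used, so that label was not checked.

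The members were next compared between pituitary gland and the 5 brain regions. They were mostly higher in pituitary gland: 29 were higher and 5 lower, against 27% and 22.3% of all tested miRNAs, with a median difference of 0.85 for the members and 0 over all. With the normal-exponential background 13 were higher and 0 lower. miR-377_v15.0 could be tested only through pituitary, adrenal and sublingual gland. It was at the floor on 14 of 15 brain arrays, which fixed its direction here. The largest difference was that of miR-431, one of the miRNAs antisense to Rtl1. Its levels in pituitary gland were 294, 316 and 288, and over the 15 brain arrays it ranged from 10.8 to 45.05 around a median of 21.2. Every pituitary array was above every brain array, and the difference was 3.85 ± 0.19 (14.4-fold, adjusted p = 1.15e-38). miR-376c, of the miR-376 group known for adenosine-to-inosine editing of its precursors, had 169, 178 and 170.0 in pituitary gland. In brain it ranged from 10.8 to 32.2 around a median of 24.9, and the difference was 2.94 ± 0.13 (7.66-fold). miR-337 had 189, 190.0 and 161 in pituitary gland and ranged from 14.4 to 62.4 around a median of 27.1 in brain, a difference of 2.77 ± 0.16 (6.80-fold). miR-299 had 158, 159.7 and 161 in pituitary gland and ranged from 19.03 to 36.2 around a median of 25.9 in brain, a difference of 2.60 ± 0.15 (6.08-fold). For these 4 members the groups did not overlap. The probes named miR-494 were not well above background on any of the 15 brain arrays, with signals of 13.01 to 58.7 around a median of 31.7, and had 116, 140.1 and 266 in pituitary gland (at least 5.39-fold the mean brain signal of these probes, adjusted p = 6.58e-05). Those named miR-494_v15.0 were detected on all 15 brain arrays, ranged there from 16.5 to 101 around a median of 41.7, and had 76.3, 97.2 and 577 in pituitary gland, where the arrays of rats 4 and 5 lay within the brain range (adjusted p = 0.00328). miR-379, the first miRNA of the large group, had 352, 397 and 429 in pituitary gland and 248, 180.003 and 213 in adrenal gland, and ranged from 114 to 481 around a median of 194 in brain (0.97 ± 0.17 between pituitary gland and brain). miR-136, again antisense to Rtl1, had 320.3, 395 and 504 in pituitary gland and ranged from 167 to 468 around a median of 378 in brain (0.27 ± 0.20, adjusted p = 0.285), so the 2 overlapped. In all, 13 members were above every brain array on all 3 pituitary arrays, as were 48 of all 345 tested miRNAs (13.9%).

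Among the members lower in pituitary gland than in brain, the differences were small. miR-496_v15.0 had 16.3, 24.3 and 15.9 in pituitary gland and ranged from 15.3 to 56.4 around a median of 43.8 in brain (means of 18.5 and 36.97, adjusted p = 3.56e-12). miR-300-5p was at the floor on all 3 pituitary arrays and ranged from 10.8 to 36.4 around a median of 15.98 in brain (-0.68 ± 0.07). Both overlapped the brain range, whose lowest arrays were those of cerebellum. The call of miR-300-5p was lost with the 75th percentile over all miRNAs (-0.005) and after quantile normalization (-0.007). miR-758 had 26.7, 27.6 and 27.98 in pituitary gland and ranged from 10.8 to 150.4 around a median of 26.1 in brain (-0.34 ± 0.11). miR-485, known as a regulator of the synaptic vesicle protein SV2A, had 23.5, 22.2 and 26.3 and ranged from 11.3 to 54.5 around a median of 30.9 in brain (-0.29 ± 0.08). miR-323 had 84.1, 88.4 and 77.2 and ranged from 51.01 to 183 around a median of 109 in brain (-0.25 ± 0.10). The 3 pituitary arrays of each lay within the brain range, and the differences were called with adjusted p of 0.00386, 0.00174 and 0.0269. These 3 calls were lost with the median over miRNAs detected on all arrays (-0.04, -0.05 and -0.01). They were also lost when only the organs of brain, spinal cord, pituitary and adrenal were fitted (adjusted p = 0.307, 0.252 and 0.413). That fit, added after seeing the data, left 28 members higher and 2 lower. With 1 mean per rat and organ class, also added, 29 were higher and 4 lower.

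Slides carried several organs of 1 rat, and pituitary gland and medulla oblongata with 1 rat number in the titles shared a slide. The arrays titled rat 5 of these organs and of the 3 levels of the spinal cord carry rat 6 in another label. Without all arrays of 2 rat numbers, 26 members were higher and 5 lower in pituitary gland than in brain, and 2 were higher and 30 lower in spinal cord. Within these 3 slides, 33 members were higher in pituitary gland than in medulla on every slide and 5 were lower on every slide, against 34.2% and 27.8% of all tested miRNAs, and the median differences were 0.89, 0.85 and 1.06. miR-431 differed by 4.37, 4.04 and 4.29 and miR-758 by -0.96, -1.24 and -0.96.

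In adrenal gland most members were above their level in body organs and below that in pituitary gland. Against body organs, 27 of the 39 members were higher and 3 lower, against 24.3% and 49.9% of all tested miRNAs, and the median difference was 2.16 for the members and -0.21 over all. One of the 3, miR-493, could be tested through pancreas alone, and without pancreas 1 member was lower. With the normal-exponential background 6 were higher, 3 lower and the median was -0.23 against -0.53 over all. Against pituitary gland, no member was higher in adrenal gland and 32 were lower, where 15.4% of all tested miRNAs were higher and 36.5% lower. The 3 adrenal arrays lay below all 3 pituitary arrays in 35 of the 39 members, and in 41.4% of all tested miRNAs. The median difference was -1.41 for the members. The 5 largest differences were those of miR-323, miR-409-5p, miR-410, miR-487b_v15.0 and miR-369-5p. miR-323 was at the floor in adrenal gland and at least 7.67-fold higher in pituitary gland (-2.94 ± 0.13). miR-410, the last miRNA of the cluster, had 84.5, 64.3 and 98.4 in adrenal gland and 392.4, 340.2 and 378.8 in pituitary gland (-2.19 ± 0.15, 4.56-fold lower, adjusted p = 3.32e-26). miR-409-5p had 21.9, 14.7 and 21.5 in adrenal gland and 109, 90.6 and 104 in pituitary gland (-2.40 ± 0.13, 5.29-fold lower). miR-487b_v15.0 had 17.5, 11.7 and 12.1 in adrenal gland and 67.5, 63.8 and 50.5 in pituitary gland (-2.15 ± 0.12). In each of these the 2 organs were fully separated. miR-369-5p, near the end of the cluster, had 67.2, 41.4 and 64.8 in adrenal gland and 233, 222 and 215 in pituitary gland (-1.98 ± 0.18). miR-299 was an exception to this order, with 173, 106 and 136.1 in adrenal gland and 158, 159.7 and 161 in pituitary gland (-0.24 ± 0.19, adjusted p = 0.369).

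Between adrenal gland and brain the members split. In adrenal gland 8 members were higher and 23 lower than in brain, against 19.7% and 33.9% of all tested miRNAs, and the median difference was -0.59. This comparison and the one of pituitary gland with brain use the same brain arrays, so their values are set side by side and not taken as independent. The largest differences upward were those of miR-431, miR-299, miR-494, miR-376c and miR-337. miR-431 had 131, 92.3 and 115 in adrenal gland, above every brain array (2.43 ± 0.19, 5.38-fold, adjusted p = 2.72e-23). miR-299 had 173, 106 and 136.1 (2.37 ± 0.15, 5.16-fold). miR-376c had 75.1, 50.5 and 71.3 (1.52 ± 0.13, 2.88-fold). All 3 were above every brain array, and miR-337 was higher with some overlap, at 65.8, 52.7 and 51.98 (1.10 ± 0.16, 2.14-fold). miR-494 had 106, 86.4 and 88.9, 3.09-fold the mean brain signal of these probes (adjusted p = 0.0074). That call did not hold for the other probes or in other fits: miR-494_v15.0 had 75.9, 66.4 and 61.3 in adrenal gland, 1.66-fold its brain mean (adjusted p = 0.388). For miR-494, with slide as a fixed block the difference was 0.28 (adjusted p = 0.889), and without rat 5 the adjusted p was 0.122.

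The largest differences downward were those of miR-323, miR-758, miR-495, miR-434 and miR-487b_v15.0. miR-323 was detected on all 3 adrenal arrays but at intensities under the floor (8.58, 6.45 and 9.82 before the floor was set). It ranged from 51.01 to 183 around a median of 109 in brain, a difference of -3.19 ± 0.10 (at least 9.14-fold lower with adrenal gland at the floor, adjusted p = 9.32e-57). Pituitary gland, in contrast, had 84.1, 88.4 and 77.2. miR-758 was not detected on any adrenal array and ranged from 10.8 to 150.4 around a median of 26.1 in brain, at least 3.21-fold lower with adrenal gland at the floor. miR-495 had 69.1, 53.4 and 71.6 in adrenal gland and ranged from 93.5 to 411.2 around a median of 169 in brain (-1.58 ± 0.15). miR-434 had 455, 277 and 387, against 482 to 1809.9 around a median of 1142 in brain (-1.53 ± 0.20). For miR-323, miR-495 and miR-434 every adrenal array was below every brain array. miR-487b_v15.0 had 17.5, 11.7 and 12.1 in adrenal gland and ranged from 17.2 to 77.1 around a median of 41.7 in brain, with some overlap (-1.45 ± 0.09). miR-485 was not detected in adrenal gland either and was at least 2.70-fold lower than in brain with adrenal gland at the floor.

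The comparisons with adrenal gland depended on the scaling. With the 75th percentile over all miRNAs, adrenal gland against brain gave 12 members higher and 15 lower with a median of -0.01, and all tested miRNAs moved from 68 higher and 117 lower to 93 and 81. Adrenal gland against pituitary gland gave 2 members higher and 23 lower, and all tested miRNAs moved from 53 and 126 to 82 and 76. All tested miRNAs moved in the same way with quantile normalization (93 and 83 against brain, 81 and 79 against pituitary gland) and in the authors' table (93 and 90, and 83 and 88). The members' median stayed below 0 in both comparisons under each scaling tried, between -0.65 and -0.01 against brain and between -1.73 and -0.53 against pituitary gland.

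Neighbors in the locus could differ in level across these organs. miR-431 and miR-433 lie next to each other, with miR-433 at chr6:134327421-134327442 and miR-431 at chr6:134326468-134326488. Unlike miR-431, miR-433 had 228, 222 and 242 in pituitary gland, 68.2, 52.4 and 75.9 in adrenal gland and 356, 291 and 228 in thalamus. It was 2.01-fold higher in pituitary gland than in brain and 1.77-fold lower in adrenal gland than in brain. Of the 8 tested members on the Meg3 and Rtl1 side, 5 were higher in pituitary gland than in brain and none lower. Of the 31 on the other side, 24 were higher and 5 lower. Over all tested miRNAs 27% were higher and 22.3% lower.

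**Figure D3:**
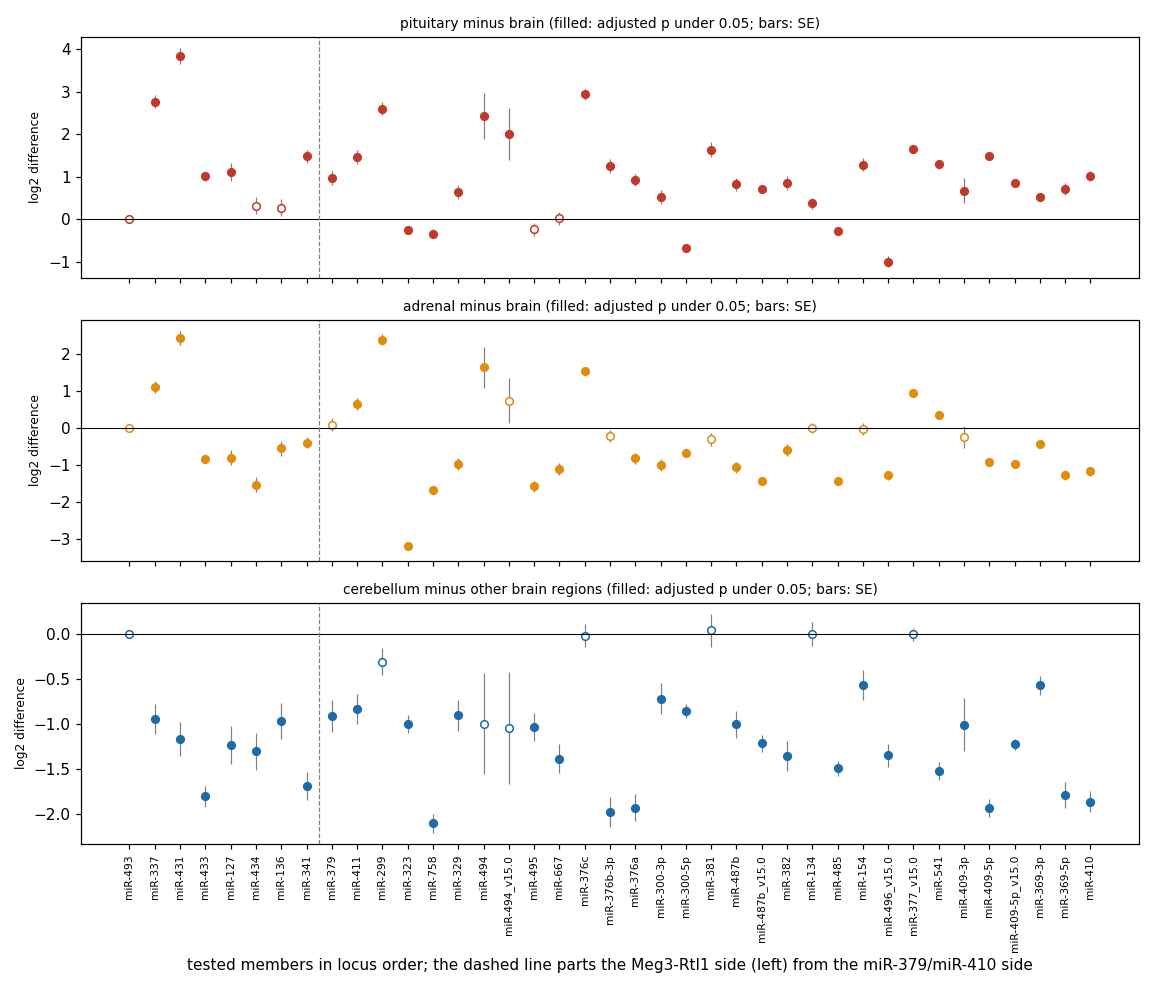
Differences (log2, with SE) of the 39 tested members between pituitary gland and brain, adrenal gland and brain, and cerebellum and the other 4 brain regions, in locus order. Filled points have an adjusted p under 0.05; miR-431, miR-376c, miR-337 and miR-299 stand highest in the first panel, miR-323 lowest in the second, and no filled point lies above 0 in the third.

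Within brain most members were highest in thalamus and lowest in cerebellum. The limma F test among the 5 regions called 34 of the 39 members, against 53.6% of all tested miRNAs. Of these 34, 32 were highest in thalamus, 1 in hippocampus and 1 in cerebral cortex, and 30 were lowest in cerebellum and 4 in medulla oblongata. For miR-369-3p, which could be tested through thalamus alone, the filter set this place. miR-758 showed the widest range. It had 150.4, 132 and 98.9 in thalamus, 52.1, 65.2 and 54.4 in medulla, 49.2, 24.01 and 26.1 in hippocampus and 22.6, 20.5 and 20.1 in cerebral cortex, and was at the floor in cerebellum. Its thalamus mean was 5.94-fold that of cortex, and no thalamus array overlapped another region. miR-410 had 576, 447 and 379.03 in thalamus, 238, 209.6 and 296 in hippocampus, 228, 181 and 196 in cortex, 135, 156 and 124.3 in medulla and 65.2, 61.8 and 68.4 in cerebellum, a range of 7.08-fold. miR-127 had 2094, 1492 and 1422 in thalamus and 492.5, 441 and 464 in cerebellum, a range of 3.53-fold. Hippocampus and cortex overlapped in both miR-410 and miR-127. miR-376c was one of the 2 exceptions: its highest mean was in cortex, and it had 32.2, 28.6 and 29.3 there, 22.3, 26.1 and 24.8 in thalamus and 11.2, 16.4 and 10.8 in medulla. miR-299 was the other, at most 30.5 in any region mean.

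**Figure D4:**
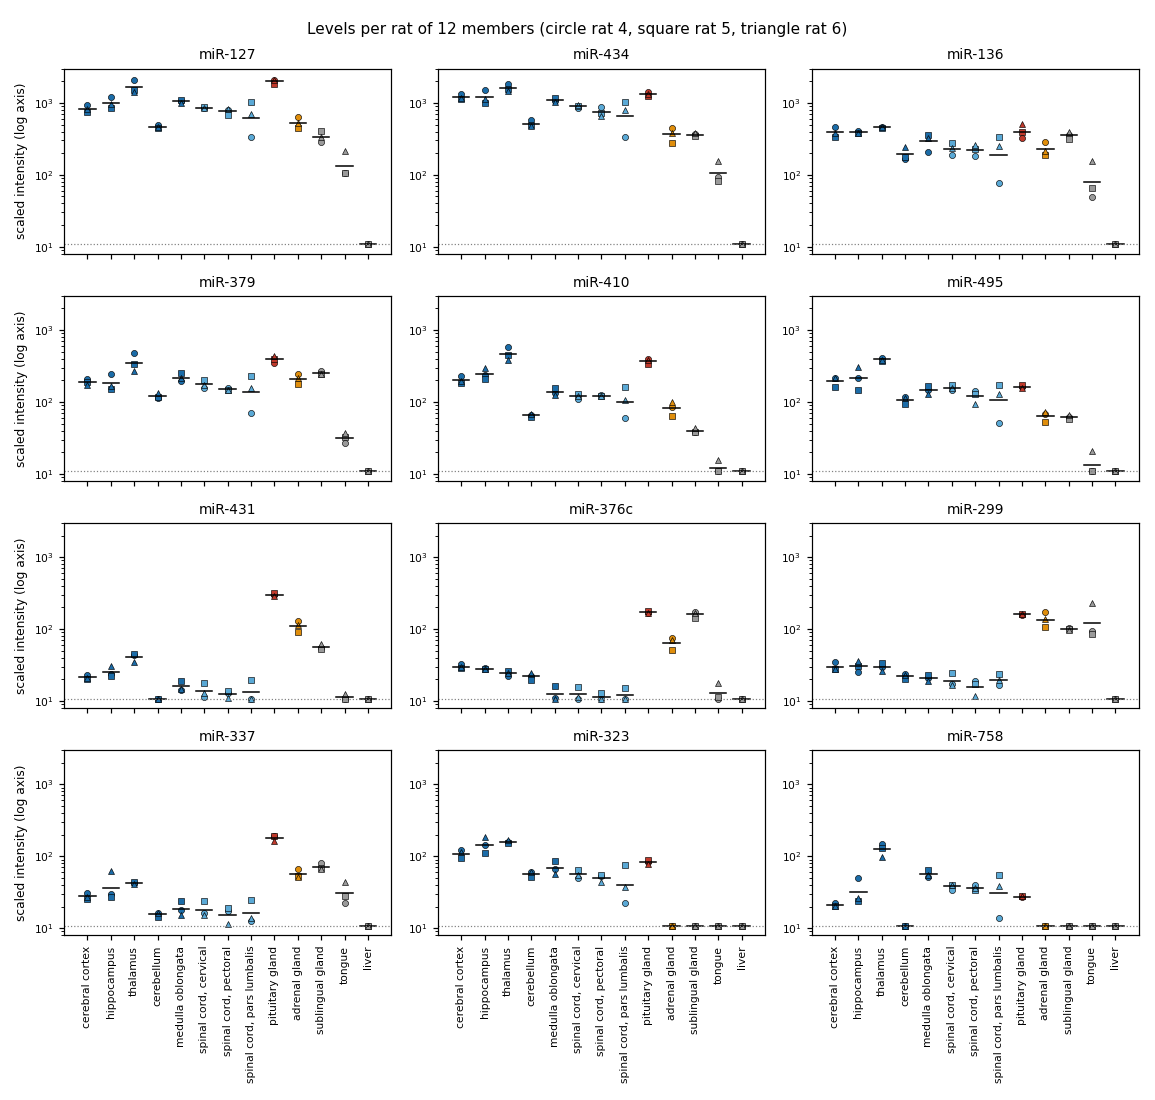
Scaled intensity (log axis) of 12 members on the array of each rat in 13 organs, with the geometric mean as a bar and the floor as a dotted line. The upper 6 members are highest in thalamus or pituitary gland and lower in cerebellum, miR-431, miR-376c, miR-299 and miR-337 have their highest mean in pituitary gland, and miR-323 and miR-758 are at the floor in adrenal gland.

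Cerebellum was tested against the mean of the other 4 brain regions. No member was higher and 31 of 39 were lower, where 11.9% of all tested miRNAs were higher and 36.5% lower, and the median difference was -1.04 for the members and -0.04 over all. In 26 members all 3 cerebellum arrays lay below the 12 other arrays, as in 21.4% of all tested miRNAs. The largest differences were those of miR-758 (-2.10 ± 0.11), miR-376b-3p (-1.98 ± 0.16), miR-409-5p (-1.93 ± 0.10), miR-376a (-1.93 ± 0.15) and miR-410 (-1.86 ± 0.12), with adjusted p of 7.18e-21 or less. miR-376a had 90.6, 82.2 and 93.4 in cerebellum and 766, 545 and 488 in thalamus. miR-376b-3p had 25.7, 19.3 and 24.99 in cerebellum and 187, 131 and 157 in thalamus. miR-409-5p had 13.1, 12.2 and 11.6 in cerebellum and 73.8, 62.0 and 52.7 in thalamus. These are low in cerebellum on each rat's array, whereas miR-376c and miR-381 had nearly equal means in cerebellum and the other regions (-0.02 ± 0.13 and 0.04 ± 0.18). The size of the shift depended on scaling. With the 75th percentile over all miRNAs, 4 members were higher and 13 lower and the median was -0.01. All tested miRNAs then stood at 94 higher and 36 lower in place of 41 and 126, at 66 and 69 after quantile normalization and at 78 and 62 in the authors' table. The members' median stayed below 0 under each scaling tried. The neuronal markers summed to 12481, 12632 and 16466 in cerebellum and to 6907, 6103 and 6721 in thalamus. The myelin markers miR-219-2-3p and miR-338 summed to 1393, 1368 and 872 in cerebellum and to 2463, 1760 and 2230 in thalamus. miR-7a had 77.8, 78.2 and 72.2 in cerebellum and 3306, 2586 and 2396 in thalamus. The part of cell makeup in the differences between regions was not tested.

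In spinal cord the members were lower than in brain. Of the 39, 2 were higher and 30 lower, against 20.3% and 27.5% of all tested miRNAs, with a median difference of -0.45. With the normal-exponential background 1 was higher and 1 lower, and the median was -0.10. miR-487b showed the largest difference (-1.19 ± 0.10, 2.28-fold lower), and miR-323 had 49.6, 65.2 and 55.7 at the cervical level (-1.03 ± 0.07). No member had all 9 spinal cord arrays below all 15 brain arrays, and only 5 of all 345 tested miRNAs did (1.45%). The 2 higher members were the probe versions of miR-494, for which rat 6 at the pectoral level stood apart (40.9, 63.5 and 681 for miR-494). The pars lumbalis array of rat 4 also stood apart. Its miR-127 level was the first of 334, 1020.1 and 691, its neuronal markers summed to the first of 1234, 5496 and 2841, and its erythroid markers, miR-451 and miR-144, to the first of 849, 153 and 63.8. At the cervical level the neuronal markers summed to 3421, 5100 and 3826, against 4502, 6822 and 5202 in medulla oblongata. The myelin markers miR-219-2-3p and miR-338 summed there to 5165, 6091 and 5649, against 3671, 4697 and 5013 in medulla oblongata. The part of blood or tissue makeup in these values was not tested. Without the rat 4 array of pars lumbalis 3 members were higher and 25 lower. With 1 mean per rat and organ class 24 members were lower, and without rat 4 in any organ 20 were lower. With the median over miRNAs detected on all arrays 34 were lower with a median of -1.14, and the split over all tested miRNAs moved from 70 higher and 95 lower to 30 and 174 with a shift of their median to -0.32.

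Among body organs, sublingual gland carried most of the cluster. Against the other 54 organs, 25 of the 39 members were higher there, where 21.7% of all tested miRNAs were higher. miR-376b-3p had 206.3, 204 and 204 in sublingual gland, more than the 162, 172 and 160.1 in pituitary gland, and it was the 1 member that peaked there. Its difference from the other organs was 3.70 ± 0.15. miR-376c had 175, 141.9 and 167, close to the 169, 178 and 170.0 in pituitary gland and far above its brain range. miR-431 had 54.1, 52.5 and 61.2, and miR-127 287, 402 and 330.4. The brain-side members miR-323 and miR-758 were at the floor on all 3 sublingual arrays. The neuronal markers were at the floor in sublingual gland, and the 4 epithelial markers summed to 9682, 9766 and 9632. The 4 mesenchyme and smooth muscle markers, miR-199a-3p, miR-214, miR-143 and miR-145, were detected there on all 3 arrays and summed to 3851, 4140.1 and 3696, and miR-375 had 671, 814 and 849.7. The part of these cell types in the result was not tested. The percentile used for scaling differed among the 3 sublingual arrays (6121, 1698 and 946), with 230, 195 and 155 miRNAs detected, while the levels of these members differed little between rats. In mandibular gland, 15 members were higher, against 22% of all tested miRNAs, and this rested on rat 6: miR-127 had 62.3, 92.1 and 202, miR-379 35.5, 53.01 and 168 and miR-154 33.1, 55.4 and 159.7. With all 3 arrays 8 members were lower. Without that array 9 of the 39 members were higher and 16 lower. This is close to the 22% of all tested miRNAs that were higher with all arrays. The share over all tested miRNAs was not computed without it. The mesenchyme and smooth muscle markers summed to 2012, 2021 and 2841 in mandibular gland and the epithelial markers to 10986, 11572 and 9290.3, and their part in the result was not tested. Skeletal muscle and tongue carried a part of the set. Against the other 54 organs, 14 members were higher and 11 lower in femoris muscle (against 20.9% and 51.9% of all tested miRNAs), and 9 were higher and 21 lower in tongue (against 13.3% and 60.9%). In the other muscles 11 were higher and 14 lower (gastrocnemial), 10 and 14 (interseptum) and 9 and 16 (soleus). Of all 345 tested miRNAs, 75 were higher and 178 lower in gastrocnemial muscle, 73 and 171 in interseptum and 55 and 190 in soleus. miR-299 had 150.5, 111 and 122.4 in femoris muscle and 93.2, 85.3 and 231 in tongue, all above every brain array, against 158, 159.7 and 161 in pituitary gland. miR-323 and miR-758 were at the floor in tongue and femoris muscle.

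Pancreas was the exception, and its values depend on the scaling. The 75th percentiles of its 3 arrays were 121, 90.5 and 68.0, the lowest of the atlas, against up to 6343 elsewhere. Only 5, 6 and 5 members and 102, 108 and 86 miRNAs were detected on them, and the dimmest detected miRNA of these arrays had a scaled intensity of 115, 224 and 273, far above the common floor. In pancreas 15 members were called higher than in the other 54 organs and 21 lower, where 41.2% of all tested miRNAs were higher and 46.1% lower. Only 6 members were detected on any pancreas array, so most of the 15 were called on signals that passed no detection call. The acinar markers miR-216a and miR-217 summed to 8949.6, 9247 and 9054 there. miR-494 had scaled levels of 111387, 145292 and 127409 and unscaled intensities of 6349, 6209 and 4091, the highest of 55 organs on either scale. Pituitary gland had unscaled 177, 192 and 210.0. miR-494_v15.0 had unscaled intensities of 15727, 13638 and 12312 and was likewise highest in pancreas on both scales. miR-134, a regulator of dendritic spine size in hippocampal neurons, was detected on 1 of 15 brain arrays and on all 3 pancreas arrays, with scaled levels of 407, 1139 and 797. Its unscaled intensities in pancreas were 23.2, 48.7 and 25.6, and those in pituitary gland were 18.4, 24.2 and 10.3, so the organs overlapped without scaling. miR-493 had scaled levels of 547, 448 and 813 and unscaled intensities of 31.2, 19.1 and 26.1, against 6.66, 6.71 and 3.06 in pituitary gland, and was first on both scales. miR-409-3p, in contrast, was first in pancreas after scaling (346, 639.6 and 635) and 34th of 55 organs without it (19.7, 27.3 and 20.4, against 49.7, 54.2 and 34.7 in pituitary gland). miR-667 and miR-300-5p were not detected on any pancreas array, and their unscaled intensities there ranked 23 and 15.

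**Figure D5:**
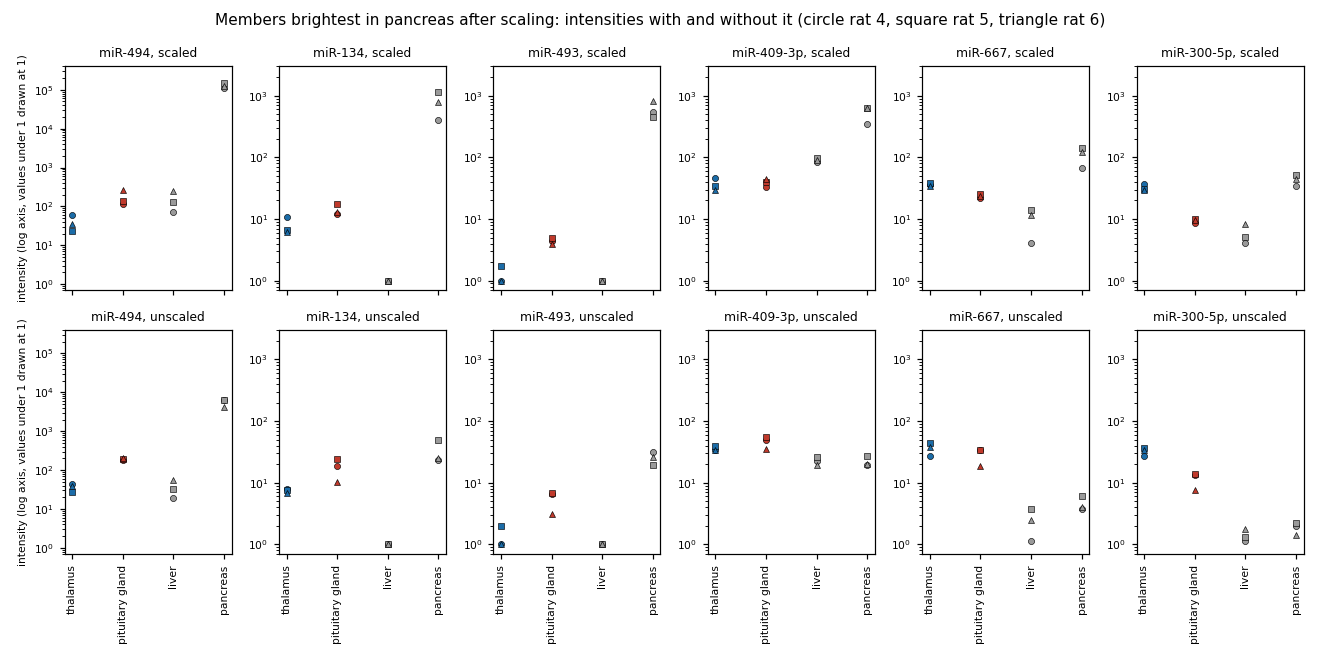
Intensity (log axis, values under 1 drawn at 1) of 6 members in thalamus, pituitary gland, liver and pancreas, with scaling but before the floor (top) and without scaling (bottom), 1 point per rat. miR-494 and miR-493 are highest in pancreas in both rows, whereas miR-409-3p, miR-667 and miR-300-5p have their highest mean there only in the top row.

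Saline perfusion could be compared in 5 organs, none of which carried the cluster. On the 15 arrays of rats that were not perfused 2 to 4 members were detected, and on the 15 matching arrays of perfused rats 2 to 3. Only miR-409-3p, miR-494 and miR-494_v15.0 could be tested among the 191 miRNAs of this fit. None was called in any of the 5 organs or in the interaction of perfusion and organ by limma, and none had an unadjusted p under 0.05. Over all 191 miRNAs, 0 were called, and 4, 3, 4, 11 and 12 had an unadjusted p under 0.05 in atrium, septum, kidney, liver and lung. In liver, miR-494 differed by -0.15 ± 0.37 between perfused rats and those that were not.

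Several members are represented by 2 names whose probes follow 2 versions of the miRNA database. The 2 names of miR-494 correlated over 55 organ means at r = 0.986, those of miR-409-5p at 0.957, those of miR-487b at 0.914 and those of miR-496 at 0.881. The names of miR-667 (0.681) and miR-377 (0.653) correlated less, each with 1 name never detected. Without pancreas the correlation of miR-494 was 0.974 and those of miR-409-5p, miR-487b, miR-496 and miR-377 moved by less than 0.001, while miR-667 had none, since its undetected name was then at the floor in every organ. Detection differed too, with miR-494 detected on 93 arrays and miR-494_v15.0 on 180. miR-381 was detected on 66 arrays and miR-381_v15.0 on none, miR-667 on 29 and miR-667_v15.0 on none, and miR-377 on none and miR-377_v15.0 on 11. miR-377_v15.0 was seen on all 3 arrays of 3 organs: 37.1, 32.9 and 32.3 in pituitary gland, 28.4, 15.1 and 21.2 in adrenal gland and 38.2, 27.8 and 32.5 in sublingual gland. In brain it was at the floor on 14 of 15 arrays.

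The opposite arms of the same hairpins served as a comparison, from 31 starred names with the members' numbers. Of these, 16 were detected and 10 tested. All 10 were higher in brain and in pituitary gland than in body organs, against 40% and 37.4% of all tested miRNAs. In adrenal gland 8 were higher than in body organs, against 24.3%. All 10 were lower in cerebellum than in the other brain regions and lower in adrenal than in pituitary gland, each against 36.5%. Between pituitary gland and brain 7 were higher and 2 lower, against 27% and 22.3%. Of the 10, 8 had their highest level in brain, spinal cord, pituitary gland or adrenal gland, through which the filter could admit them. Among miRNAs outside the members, the 5 whose 55 organ means were most like the median profile of the members were all starred names: miR-136* (r = 0.968), miR-434* (0.954), miR-382* (0.933), miR-411* (0.912) and miR-543* (0.884). Without pancreas these were 0.969, 0.952, 0.935, 0.914 and 0.881. Of the 14 names of other miRNAs of the locus on the array, 3 were detected and 1 could be tested.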

How the data were processed

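Total RNA (0.1 ug) was labeled with Cy3 and hybridized to a custom Agilent rat miRNA array by the authors, who extracted signals with Agilent Feature Extraction 10.7.3. The deposited intensity values of the scanner files (background-subtracted processed signal) were used here. The authors' own table of normalized intensity holds the total gene signal times 1 factor per array and served as an alternative. Outlier spots were left out, spots were averaged per probe sequence and then per miRNA, and each array was scaled so that its 75th percentile was equal, counting for it the 37 miRNAs that every array detected. A floor of 10.8 and log2 followed. limma 3.58.1 in R 4.3.3 was fitted with 1 term per organ on the arrays of perfused rats, for 345 miRNAs detected on all 3 arrays of an organ, with Benjamini-Hochberg adjustment over all of them and calls at an adjusted p of 0.05. Differences are given as log2 with SE. The scripts were tested on simulated data. In organs at the floor replicates do not vary, which makes the pooled spread, and hence the SE, too small for members bright in few organs, so fits with 1 mean per rat and organ class and with 10 organs only were added after seeing the data. Members named were the 5 with the largest called differences in each direction of 4 comparisons, entries chosen by name, those never detected, those highest outside nervous and endocrine organs, probe-version pairs and the most similar non-members. miR-433, miR-377_v15.0, miR-154 and the other members with values were added after their values were seen. The members and lists were chosen with earlier results of these data known. Rat numbers came from sample titles, as 8 arrays carried 2 rat numbers in the labels. Numbers mark the same rat, so samples are paired: residuals of arrays of 1 rat correlated at 0.0496 and of different rats at -0.0246. The normal-exponential background used the median spot signal, since the mean was not used here. No spot of a miRNA was saturated, and precision is limited by the number of arrays. The alternatives were other scalings, floors, filters, detection calls, spot averaging, slide or rat as a block, and each rat left out.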

Additional observations from a re-analysis of the deposited data

How the results depend on the processing

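Of the counts of members called under all alternatives, 52 moved by over 1.5 times and the others did not. Of the values of single members, 633 stayed on their side of the threshold, 30 lost the call (15 of them with the normal-exponential background) and none reversed. A filter requiring detection on at least 50% of arrays left 6 members, of which brain against body called 3 higher and 3 lower, pituitary against body 3 and 0, adrenal against body 3 higher, pituitary against brain 4 and 0, adrenal against brain 1 and 3, adrenal against pituitary 4 lower, cerebellum 4 lower, spinal cord 3 lower, the 5 brain regions 4 and the 55 organs 6. With the normal-exponential background the counts were 16 and 16 for brain against body, 0 lower for pituitary against body, 6 higher for adrenal against body, 13 and 0 for pituitary against brain, 2 and 10 for adrenal against brain, 18 lower for adrenal against pituitary, 15 lower for cerebellum, 1 and 1 for spinal cord, and 15 among brain regions. With the 75th percentile over all miRNAs they were 3 lower for pituitary against body, 15 lower for adrenal against brain, 2 higher for adrenal against pituitary, and 4 and 13 for cerebellum. In the authors' table they were 3 lower, 2 higher and 3 and 19 for pituitary against body, adrenal against pituitary and cerebellum. Quantile normalization gave 3 higher for adrenal against pituitary and 3 higher for cerebellum. The median over miRNAs detected on all arrays gave 2 lower for pituitary against brain and 1 higher for spinal cord. The median over probe sequences gave 2 lower for pituitary against body, and no filter and the scanner call each gave 1 higher for adrenal against pituitary. Without pancreas, 3, 0 and 1 members were lower than body organs in brain, pituitary and adrenal gland. With slide as a fixed block 3 were lower in brain than body organs and 0 higher in spinal cord. The added fit of 10 organs gave 2 lower for pituitary against brain. Leaving out each rat in turn gave 26 to 27 higher and 1 to 4 lower for adrenal against body, 33 to 34 and 1 to 2 for pituitary against body, 25 to 28 and 4 to 4 for pituitary against brain, 7 to 7 and 20 to 22 for adrenal against brain, 30 to 34 lower for adrenal against pituitary, 30 to 31 lower for cerebellum, 1 to 3 higher and 20 to 29 lower for spinal cord, and 32 to 33 among brain regions. The replicate block, which pairs samples of 1 rat, gave 33 and 5, 33 and 1, 27 and 3, 29 and 5, 8 and 23, 0 and 32, 0 and 31, and 2 and 30 for the 8 comparisons in the order of brain, pituitary and adrenal against body, pituitary and adrenal against brain, adrenal against pituitary, cerebellum and spinal cord, and changed no call count. The cause of these shifts was not tested, apart from the filter, which tests fewer members. Signal over background limits the dim members: values under the floor have no order, and 9 members had no detected array.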

Other observations

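miRNAs from elsewhere in the genome also followed the members' median profile over the 55 organ means, which share arrays and scaling. The closest were miR-551b (r = 0.872), highest in pituitary gland, miR-344a-3p (0.857), highest in thalamus, miR-132 (0.849), an activity-regulated neuronal miRNA highest in cerebral cortex, miR-137 (0.816) and miR-384-5p (0.797). Without pancreas these were 0.869, 0.856, 0.846, 0.811 and 0.792, and miR-7b (0.798) came before miR-384-5p. For miR-300-5p, miR-487b_v15.0 and miR-667 the probe sequences of 1 name did not follow each other over organs, with lowest correlations of 0.589, 0.150 and 0.649, so their levels are means of probes that behave differently.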
